A study of Mus musculus with 8 samples.

Results

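Neuropeptides are made as precursor proteins that neurons cut and modify inside dense-core vesicles before release. Prohormone convertases cut the precursor at paired basic residues, carboxypeptidase E trims those residues, and the amidating enzyme Pam finishes many of the products. Granins are abundant proteins of the same vesicles. Single hypothalamic nuclei are the main source of some precursors, striatal projection neurons of others, and scattered cortical interneurons of a further set, so a forebrain library reads all 3 sources at once.

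The members were 42 genes of this system, found by gene symbol in a table of 53278 symbols. They comprised 18 precursors known mainly from the hypothalamus, 3 of striatal projection neurons, 13 of cortical and other neurons, 4 granins and 4 processing enzymes. All 42 symbols had a row, and 39 passed the filter on low counts that left 20140 genes for testing. Kiss1, the kisspeptin precursor, Nmu, the neuromedin U precursor, and Npw, the neuropeptide W precursor, did not pass it: over the 8 mice Kiss1 held between 1 and 8 counts, Nmu between 0 and 11, and Npw between 1 and 7.

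RNA from the entire forebrain was sequenced from 8 male C57BL/6J mice of 10 to 20 weeks. The depleted group was 4 mice given PLX3397 food, an inhibitor of the CSF1 receptor that microglia need, and the control group was 4 mice given control food, each for 9 days. Both groups shared strain, sex and age range, and no transgene or further treatment is named for either. The labels do not say how the forebrain was cut from the rest of the brain.

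Total counts per mouse ranged from 48455538 to 68406688, and levels are given as counts scaled to library size (CPM), adjusted by TMM normalization. Csf1r, the drug's target and a microglial gene, averaged 1.22 ± 0.609 CPM in depleted mice and 58.6 ± 5.49 CPM in control mice (SD, n = 4 each), and 8 of 8 microglial markers were lower in depleted mice. Of the 12 marker lists used, no other had a gene past the threshold between the groups. Below the threshold, the 13 striatum markers all leaned higher in depleted mice, with log2 fold changes from 1.24 (Rasd2) to 1.76 (Scn4b). Each mouse got a hypothalamus score and a striatum score, the mean log2 CPM of 13 marker genes each, none of them a member, centred over the 8 mice. The hypothalamus score was -1.11, 1.02, 0.86 and -0.25 in depleted mice 1 to 4 and -0.41, 1.00, 0.87 and -1.99 in control mice 1 to 4. The striatum score was 1.19, -0.67, 1.45 and 1.12 in depleted mice and -2.13, 0.37, -0.32 and -1.02 in control mice. Both scores therefore differed widely between mice of the same group. In bulk tissue fewer cells of a type, or less of a region, and less RNA per cell cannot be told apart.

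Oxt and Avp, the oxytocin and vasopressin precursor genes, are neighbours whose hormone-coding stretches are nearly identical. Oxt lies on chromosome 2 from 130576173 to 130577054 on the plus strand (GRCm38) and Avp from 130580620 to 130582554 on the minus strand, with 3565 bases between their annotated ends. The stretches below code for the hormone itself and the glycine, lysine and arginine codons that follow it (residues 20 to 31 of 125 in Oxt and 24 to 35 of 168 in Avp), and capitals mark the 5 bases at which they differ.
Oxt: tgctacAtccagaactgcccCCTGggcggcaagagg
Avp: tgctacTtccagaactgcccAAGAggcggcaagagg
The shared end of both stretches holds the signal that the amidating and cleaving enzymes act on. In these libraries the levels of the 2 genes took different courses from mouse to mouse, as given with the hypothalamic precursors.

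The pair of genes with the widest swings, Hcrt and Pmch, is shown by the 100 bases around its starts, from RefSeq (GRCm38.p6), with the letters TATAAA in capitals. Hcrt is read from chr11:100762912-100763011 on the minus strand and Pmch from chr10:88090992-88091091 on the plus strand, and the motif begins 33 bases before the start in Hcrt and 27 before it in Pmch.
Hcrt: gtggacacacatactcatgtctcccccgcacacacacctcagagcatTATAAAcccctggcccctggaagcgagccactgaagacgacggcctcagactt
Pmch: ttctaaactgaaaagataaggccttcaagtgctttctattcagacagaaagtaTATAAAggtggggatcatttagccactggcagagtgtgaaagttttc
Start windows from 250 bases before to 50 after the start were matched for 33 of 42 members, and none was matched for Agrp, Cpe, Crh, Gnrh1, Grp, Npw, Penk, Pnoc and Vgf. TATAAA, searched on both strands, stood in 9 of the 33 windows (27.3%) and in 15.7% of 27025 gene starts. The cyclic AMP response element TGACGTCA, which reads the same on both strands, stood in 5 of the 33 (15.2%) and in 2.03% of all gene starts. Those 5 are shown with the element in capitals because they cut across classes and across the spread described below, from Sst, a steady interneuron precursor, to Cartpt, a variable hypothalamic one.
Sst, chr16:23890865-23890912, minus strand: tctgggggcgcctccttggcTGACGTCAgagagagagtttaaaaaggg
Scg2, chr1:79440067-79440114, minus strand: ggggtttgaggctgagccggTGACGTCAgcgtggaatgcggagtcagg
Chgb, chr2:132781550-132781597, plus strand: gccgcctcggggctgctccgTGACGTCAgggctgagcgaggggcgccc
Pcsk1, chr13:75089759-75089806, plus strand: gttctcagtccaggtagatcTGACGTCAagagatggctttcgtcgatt
Cartpt, chr13:99900768-99900815, minus strand: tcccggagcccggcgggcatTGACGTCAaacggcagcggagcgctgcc
A match of letters is a description of the sequence and not evidence that a factor binds there.

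Levels spanned several orders of magnitude. Per kilobase of merged exons, Cpe, the carboxypeptidase, was the most abundant member at 849 CPM per kilobase, ahead of the precursors Sst (somatostatin) at 244 and Penk (enkephalins) at 213 and the granins Chgb at 154 and Scg2 at 119. Cck followed at 117 and Vgf at 101, while the lowest of the 39 tested members was Qrfp, the precursor of a feeding peptide, at 0.136 CPM per kilobase. All members together made up 4866 to 5296 CPM of a library, with Cpe alone supplying between 38.4% and 48.7% of that sum.

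The spread across mice differed widely between members. The SD of log2 CPM over the 8 mice had a median of 0.50 over the 39 members, against 0.20 over all 20140 genes, and 18 of the 39 lay above the 90th percentile of all genes. Hcrt ranked 1st, Pmch 2nd, Oxt 19th and Avp 21st of all genes tested. The members were chosen with earlier results of these data known. The steadiest members, by coefficient of variation, were Cpe (6.97%), Vgf (7.99%), Sst (8.76%), Pam (9.77%) and Chga (10.1%), which contrasts with 107% for Hcrt and 104% for Pmch. Hypothalamic precursors summed to 36.2, 232, 245 and 109.96 CPM in depleted mice 1 to 4, and to 63.4, 233, 263 and 32.1 CPM in control mice 1 to 4. The same 2 mice of each group, numbers 2 and 3, were high. Striatal precursors summed to 683, 272, 937 and 705 CPM in depleted mice, against 117, 524, 392 and 191 CPM in control mice, an order that differs from the hypothalamic one. Summed granins ranged from 1099 to 1255 CPM and summed enzymes from 2589 to 3036 CPM over all 8 mice.

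**Figure D1:**
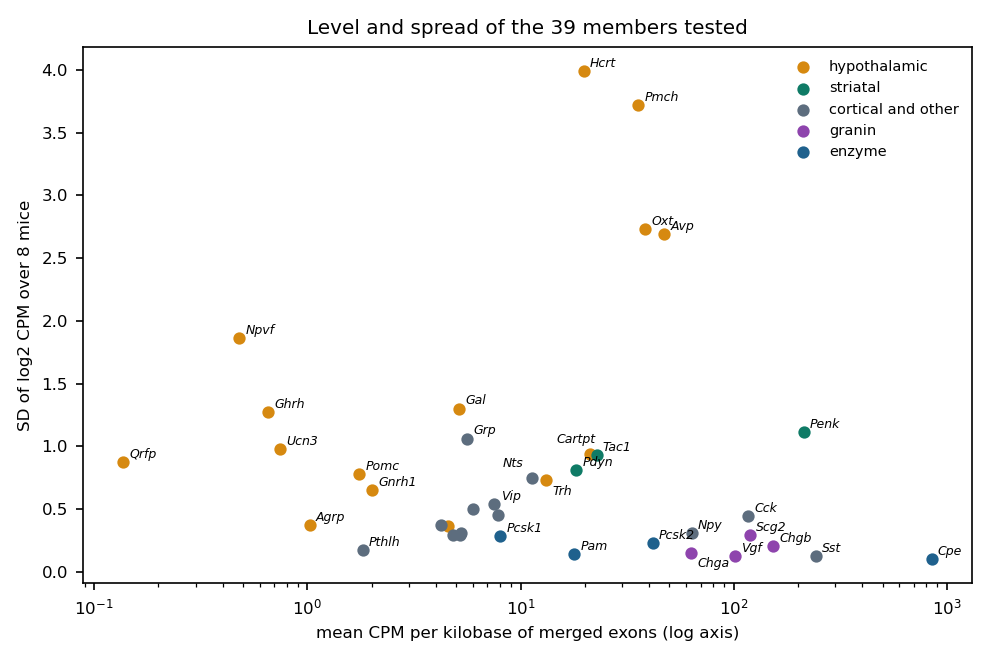
Mean CPM per kilobase of merged exons (log axis) against the SD of log2 CPM over 8 mice for the 39 members tested, coloured by class, with names given for the members outside the crowded lower part. Hcrt (SD 3.99), Pmch, Oxt and Avp stand far above the rest at middling levels, while Cpe, at 849 CPM per kilobase, has one of the smallest spreads.

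Hypothalamic precursors came first in this spread. Hcrt, the orexin precursor of lateral hypothalamic arousal neurons (chromosome 11, 100761069 to 100762931, minus strand), stood at 0.127, 25.4, 30.0 and 0.0823 CPM in depleted mice 1 to 4, against 0.128, 32.5, 29.9 and 0.222 CPM in control mice 1 to 4. Pmch, the precursor of melanin-concentrating hormone from neighbouring lateral neurons (chromosome 10, 88091072 to 88092375, plus strand), stood at 0.127, 50.1, 55.0 and 0.309 CPM in depleted mice 1 to 4, against 2.56, 57.5, 47.5 and 0.462 CPM in control mice 1 to 4. Both were low in the same 4 mice, 2 per group, and high in the other 4, with no mouse in between for Hcrt. The low libraries held 4 to 12 Hcrt counts and the high ones 1249 to 2081, so the contrast is far beyond counting error. In the high mice the ratio of Pmch to Hcrt in CPM varied little, at 1.97 and 1.83 in depleted mice 2 and 3, and 1.77 and 1.59 in control mice 2 and 3. In the low mice, on few Hcrt counts, it was 1.00 and 3.75 in depleted mice 1 and 4, and 20 and 2.08 in control mice 1 and 4.

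Avp, the vasopressin precursor of neurons that govern water balance, had 0.381, 40.4, 62.6 and 13.4 CPM in depleted mice 1 to 4, against 4.02, 52.9, 42.5 and 1.61 CPM in control mice 1 to 4. Depleted mice 2 and 3 and control mice 2 and 3 were again the highest, while depleted mouse 4 took a middle place. Oxt, the oxytocin precursor of neighbouring magnocellular neurons, had 2.48, 16.9, 29.5 and 41.5 CPM in depleted mice 1 to 4, against 0.804, 23.2, 50.5 and 0.351 CPM in control mice 1 to 4. Here depleted mouse 4 was the second highest of all, although its Hcrt level was the lowest. The ratio of Oxt to Avp in CPM was 6.52, 0.418, 0.471 and 3.09 in depleted mice 1 to 4, and 0.200, 0.438, 1.19 and 0.218 in control mice 1 to 4, so the balance of the pair varied within both groups. The values of Oxt in each mouse were chosen for display after they were seen.

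The other hypothalamic precursors swung less. Gal, the galanin precursor, had 1.63, 4.13, 6.26 and 6.13 CPM in depleted mice 1 to 4, against 1.02, 5.48, 7.20 and 0.703 CPM in control mice 1 to 4. Its 3 low mice, depleted mouse 1 and control mice 1 and 4, are among those low in Hcrt, while depleted mouse 4 was high. Ghrh, the precursor of growth hormone-releasing hormone, had 0.0363, 0.630, 0.635 and 0.370 CPM in depleted mice 1 to 4, against 0.329, 0.659, 0.754 and 0.0925 CPM in control mice 1 to 4, which rest on 2 to 44 counts per library. Pomc, the precursor of melanocortins and beta-endorphin in the arcuate nucleus, had 1.11, 5.67, 1.73 and 1.52 CPM in depleted mice 1 to 4, against 1.99, 2.76, 2.59 and 1.05 CPM in control mice 1 to 4. Depleted mouse 2 alone set its upper end. Cartpt, the precursor of the CART peptides that act on feeding and reward, had 15.0, 55.8, 25.7 and 14.9 CPM in depleted mice 1 to 4, against 34.0, 21.8, 41.5 and 7.25 CPM in control mice 1 to 4, an order in which depleted mouse 2 and control mouse 3 led.

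Crh, the precursor of the stress-axis releasing hormone, which cortical interneurons also make, was steadier at 6.49, 4.33, 6.93 and 7.12 CPM in depleted mice 1 to 4, against 3.67, 7.27, 6.38 and 6.14 CPM in control mice 1 to 4. Depleted mouse 2 and control mouse 1 were low. Among the remaining hypothalamic members Trh, the thyrotropin-releasing hormone precursor, ranged from 6.28 to 23.1 CPM in depleted mice and from 11.6 to 27.6 CPM in control mice. Gnrh1, the precursor of the reproductive releasing hormone, ranged from 0.956 to 2.43 CPM in depleted and from 0.629 to 1.65 CPM in control mice. Agrp, the hunger peptide precursor of the arcuate nucleus, stayed between 0.689 and 1.51 CPM in depleted and between 0.950 and 1.29 CPM in control mice, with no sign of the Hcrt pattern. Ucn3, for urocortin 3, Npvf, for RFamide-related peptides, and Qrfp were each below 2 CPM in every mouse. Npvf had 0 counts in depleted mouse 4, where a count of 0 allows a level of up to 0.0617 CPM (3 counts, counting error only).

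**Figure D2:**
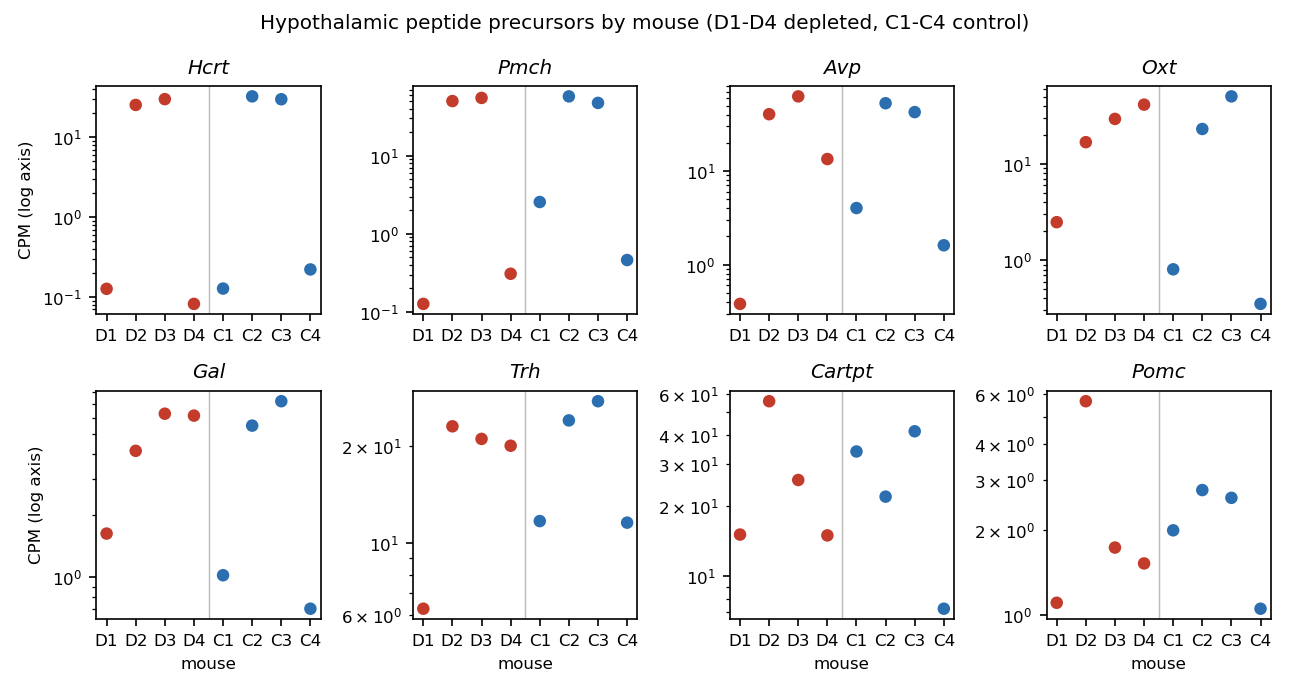
CPM (log axis, scaled to each gene) of 8 hypothalamic precursors in every mouse, with depleted mice D1 to D4 in red left of control mice C1 to C4 in blue. D2, D3, C2 and C3 are high for Hcrt, Pmch and Avp in both groups, while Oxt and Gal are also high in D4 and Pomc is highest in D2 alone (5.67 CPM).

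The hypothalamus score divided the mice at its widest gap, which ran from -0.25 to 0.86, into 4 above it (depleted 2 and 3, control 2 and 3) and 4 below. For 10 of the 39 members every mouse above the gap was higher than every mouse below it, against 2.31% of all genes tested. They were Hcrt, Pmch, Npvf, Avp, Ghrh, Ucn3, Qrfp, Scg2, Tac2 and Trh. The lowest Hcrt level above the gap was 114.5 times the highest below it, and for Pmch that quotient was 18.6, for Npvf 6.01 and for Avp 3.01. Below the gap Npvf held 0 to 6 counts, Hcrt 4 to 12, Ghrh 2 to 18, Qrfp 5 to 17 and Pmch 7 to 140. The mice below the gap alone would not have carried any of these genes through the filter on low counts. Their separation is a description. Cck was the 1 member that was lower in every mouse above the gap, against 2.42% of all genes. The members and the score's markers were chosen with earlier results of these data known, so these shares are not independent support.

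In a fit on the score itself, with group and striatum score as covariates, 10 of 39 members were higher with the hypothalamus score, against 1.13% of all genes, and 1 was lower, against 0.864% (edgeR's quasi-likelihood test, Benjamini-Hochberg over 20140 genes). By class these were 7 of 15 hypothalamic precursors tested, 2 of 13 cortical and other precursors, 1 of 4 granins and, as the lower one, 1 of 4 enzymes, with 0 of 3 striatal precursors. The median slope over the 39 members was 0.15 log2 units per unit of score, against 0.00 over all genes, and 0.74 over the hypothalamic precursors. The limit on the choice of members and markers holds for these shares too. Hcrt, Pmch and Ghrh, which passed the filter on low counts only through the mice above the gap, are counted among the 10. The slope was 4.25 (SE 0.45, adjusted p = 0.00749) for Hcrt and 3.49 (SE 0.38, adjusted p = 0.00802) for Pmch. Avp rose by 2.00 (SE 0.27, adjusted p = 0.0133) per unit of score and Ghrh by 1.11 (SE 0.21, adjusted p = 0.0340). Gal, Cartpt and Pomc followed with slopes of 0.88 (SE 0.17, adjusted p = 0.0362), 0.72 (SE 0.11, adjusted p = 0.0150) and 0.64 (SE 0.11, adjusted p = 0.0220). The slope of Oxt was 1.69 with an SE of 0.44, and it did not pass (adjusted p = 0.0959), nor did Npvf (1.76, adjusted p = 0.0535) or Trh (0.50, adjusted p = 0.0799).

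Beyond the hypothalamic class, Nts, the neurotensin precursor found in hypothalamus, striatum and amygdala, passed with a slope of 0.38 (SE 0.06, adjusted p = 0.0157). Its levels were 13.7, 12.2, 23.2 and 17.8 CPM in depleted mice 1 to 4, against 6.63, 17.0, 17.4 and 5.16 CPM in control mice 1 to 4. Control mice 1 and 4 were the lowest, and depleted mouse 3 the highest. Adcyap1, the precursor of the signalling peptide PACAP, had a slope of 0.20 (SE 0.04, adjusted p = 0.0368), the one most changed by another covariate as given below, over levels of 15.5, 25.2, 17.5 and 14.7 CPM in depleted mice 1 to 4, against 21.8, 18.8, 19.1 and 13.9 CPM in control mice 1 to 4. Depleted mouse 2 was the highest and control mouse 1 the next, with the others between 13.9 and 19.1 CPM. Scg2, a granin, and Pcsk2, an enzyme and the member that fell with the score, are described with their classes.

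How far these calls depended on single mice varied by gene. With each mouse left out in turn, Hcrt passed in 8 of 8 fits, with slopes from 3.54 to 5.22 and adjusted p up to 0.0469. Pmch passed in 7, missing without depleted mouse 1 (adjusted p = 0.0519). Cartpt also passed in 7, missing without control mouse 4 (adjusted p = 0.174), and Avp in 6, missing without control mouse 3 or 4 (adjusted p up to 0.0544). Pomc passed in 5, missing without depleted mouse 1, control mouse 3 or control mouse 4. Gal, Nts, Scg2 and Pcsk2 passed in 4, missing without depleted mouse 1 or 3 or control mouse 3 or 4, and Ghrh and Adcyap1 in 3, missing without control mouse 2 as well. Slopes kept their sign in all of these fits, with adjusted p up to 0.505 for Pcsk2. Markers of midbrain and hindbrain also differed between mice, with summed levels of 1.83, 41.96, 3.03 and 2.32 CPM in depleted mice and 47.2, 8.42, 33.4 and 3.50 CPM in control mice, and 0 to 2 of its 8 markers at 0 in each library. Depleted mouse 2, the highest for Pomc, Cartpt and Adcyap1, was one of those high libraries. With a midbrain and hindbrain score in place of the striatum score, a fit added after seeing the data, the slope on the hypothalamus score was 0.36 for Pomc (adjusted p = 0.269), 0.39 for Cartpt (adjusted p = 0.0929) and 0.05 for Adcyap1 (adjusted p = 0.632). In that fit Ghrh (1.07, adjusted p = 0.0623) and Pcsk2 (-0.13, adjusted p = 0.167) did not pass either, and the other 6 did, Nts with a larger slope of 0.65. With group as the only covariate Pomc, Gal, Cartpt, Nts, Adcyap1 and Pcsk2 missed (adjusted p from 0.0807 to 0.315), and with the score as a median Gal, Cartpt, Adcyap1, Scg2 and Pcsk2 did (adjusted p from 0.0640 to 0.0744). Summed hypothalamus markers ranged from 120.3 to 284 CPM in depleted mice and from 71.9 to 300.2 CPM in control mice, and up to 3 of the 14 were at 0 in a library.

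**Figure D3:**
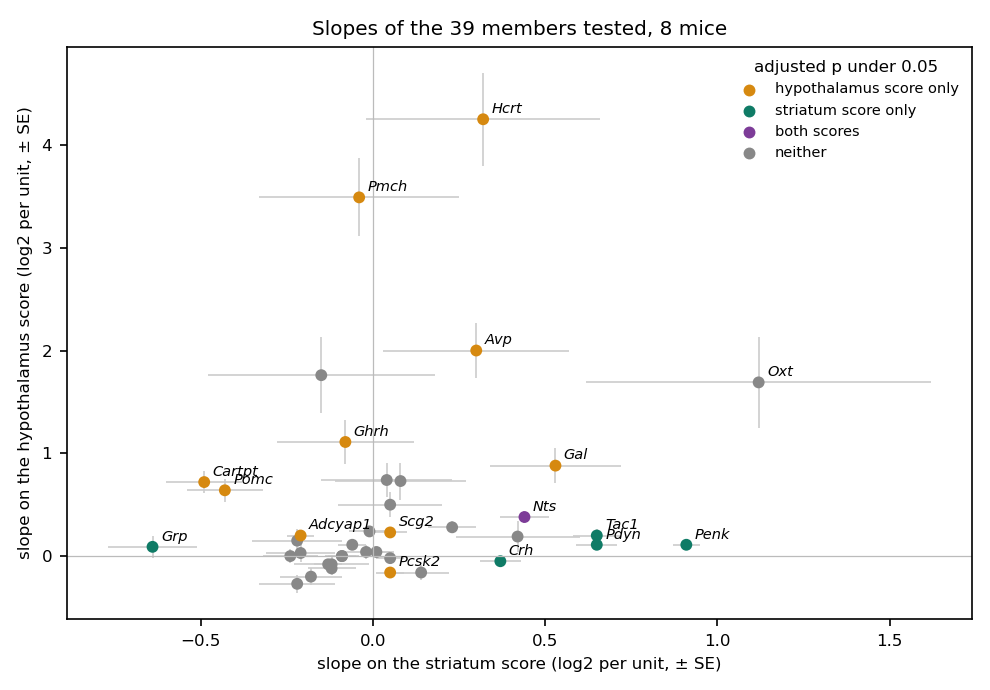
Slopes of the 39 members on the striatum score (horizontal) and on the hypothalamus score (vertical), in log2 units per unit of score with SE bars, coloured by which slope passed an adjusted p of 0.05. Hcrt (4.25) and Pmch (3.49) lie high on the vertical axis, Penk (0.91) far out on the horizontal axis, and Nts is the member that passed for both.

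Striatal precursors followed the other score. Penk, the enkephalin precursor of indirect-pathway projection neurons (chromosome 4, 4133531 to 4138819, minus strand), stood at 504, 186, 687 and 532 CPM in depleted mice 1 to 4, against 72.9, 386, 275 and 137 CPM in control mice 1 to 4. Tac1, the precursor of substance P in direct-pathway neurons (chromosome 6, 7554879 to 7565834, plus strand), stood at 107, 49.95, 152 and 109 CPM in depleted mice 1 to 4, against 27.7, 80.6, 66.5 and 26.0 CPM in control mice 1 to 4. Pdyn, the dynorphin precursor of the same direct-pathway neurons (chromosome 2, 129686565 to 129699844, minus strand), stood at 71.4, 36.6, 97.5 and 63.6 CPM in depleted mice 1 to 4, against 16.7, 57.0, 49.7 and 28.3 CPM in control mice 1 to 4. All 3 were high in depleted mice 1, 3 and 4 and lowest in control mice 1 and 4, while depleted mouse 2 lay among the control mice. The ratio of Tac1 to Pdyn in CPM ranged from 1.36 to 1.71 in depleted mice and from 0.920 to 1.66 in control mice. That of Penk to Tac1 ranged from 3.72 to 4.91 in depleted mice and from 2.63 to 5.25 in control mice. The ranges of both ratios overlapped between the groups.

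With group and hypothalamus score as covariates, 5 of 39 members were higher with the striatum score, against 1.30% of all genes, and 1 was lower, against 0.377% (edgeR's quasi-likelihood test). All 3 striatal precursors were among the 5, with slopes of 0.91 (SE 0.04, adjusted p = 1.74e-05) for Penk, 0.65 (SE 0.06, adjusted p = 5.99e-04) for Pdyn and 0.65 (SE 0.07, adjusted p = 0.00304) for Tac1, and each passed in 8 of 8 fits that left out a mouse. The other 2 were Nts at 0.44 (SE 0.07, adjusted p = 0.0147) and Crh at 0.37 (SE 0.06, adjusted p = 0.0248). Grp, the gastrin-releasing peptide precursor, was the 1 that fell, at -0.64 (SE 0.13, adjusted p = 0.0457). Nts missed without depleted mouse 2 (adjusted p = 0.157) and with group as the only covariate (adjusted p = 0.304). Crh passed in 3 of the 8 fits, missing without depleted mouse 2 or 3 or control mouse 1, 2 or 3 (adjusted p up to 0.102), and Grp in 2, those without control mouse 1 or 2 (adjusted p up to 0.311). The median slope was -0.01 over the 39 members, and 0.65 over the 3 striatal ones. Here too members and markers were chosen with earlier results of these data known.

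**Figure D4:**
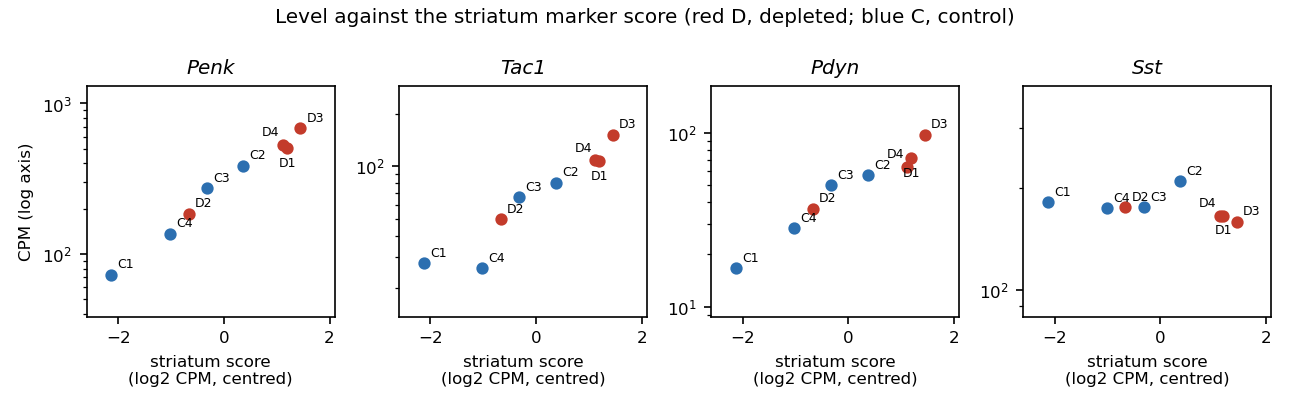
CPM (log axis, scaled to each gene) against the striatum score for Penk, Tac1, Pdyn and, for comparison, Sst, with depleted mice D1 to D4 in red and control mice C1 to C4 in blue. The 3 striatal precursors climb with the score across both groups, D2 (score -0.67) among the control mice, while Sst stays between 159 and 209.5 CPM.

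Between depleted and control mice, 0 of 39 members passed the threshold, against 1.16% of all genes tested (edgeR's quasi-likelihood test, Benjamini-Hochberg over 20140 genes). Log2 fold changes of the members, depleted over control, ran from -1.27 to 1.13 with adjusted p between 0.247 and 0.999. Without adjustment 3 of 39 members (7.69%), Cort, Grp and Tac1, had a p under 0.05, against 2212 of 20140 genes. With limma-voom 0 members passed, and with DESeq2 1 did, as lower, where 346 of all genes were lower and 118 higher. The median log2 fold change was -0.03 over the members and 0.00 over all genes. A difference that misses the threshold at this spread is not shown to be absent: the SE for Hcrt was 1.58 on the log2 scale, against 0.07 for Sst.

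Cort, the cortistatin precursor of a subset of cortical interneurons (chromosome 4, 149125034 to 149126763), had the smallest p. It stood at 3.84, 3.66, 1.93 and 2.98 CPM in depleted mice 1 to 4, against 5.46, 5.19, 4.26 and 5.18 CPM in control mice 1 to 4, averaging 3.11 ± 0.865 CPM in depleted and 5.02 ± 0.523 CPM in control mice. Every depleted mouse was lower than every control mouse, which held for 1 of 39 members and for 5.77% of all genes in either direction. The log2 fold change was -0.70 (SE 0.20, adjusted p = 0.247), and it was the member that passed with DESeq2 (adjusted p = 0.0443). Over the alternatives it ranged from -0.82 to -0.50, with adjusted p from 0.0443 to 1. Summed cortex markers ranged from 862 to 1748 CPM in depleted mice and from 1252 to 2253 CPM in control mice, with 0 of 10 at 0 in any library, and their part in the difference was not tested.

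Grp had 3.61, 10.6, 2.11 and 3.17 CPM in depleted mice 1 to 4, against 16.5, 10.1, 8.01 and 12.2 CPM in control mice 1 to 4, averaging 4.88 ± 3.89 CPM in depleted and 11.7 ± 3.64 CPM in control mice. Depleted mouse 2 stood among the control mice, and the other 3 depleted mice were below all 4. The log2 fold change was -1.27 (SE 0.45, adjusted p = 0.358) with all mice and -1.98 (adjusted p = 0.00612) without depleted mouse 2. Leaving out that mouse also raised the calls over all genes, to 243 higher and 441 lower from 11 and 223. Depleted mouse 2 had the lowest striatum score of the depleted mice. Once that score was added to the fit of all mice, the value for Grp was -0.50 (adjusted p = 1), and the cause was not tested.

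The striatal precursors had the largest positive values, at 1.13 (SE 0.51, adjusted p = 0.457) for Penk, 1.06 (SE 0.42, adjusted p = 0.398) for Tac1 and 0.83 (SE 0.38, adjusted p = 0.470) for Pdyn. Penk averaged 477 ± 211 CPM in depleted and 218 ± 140 CPM in control mice (SD, n = 4 each). Tac1 averaged 104.5 ± 41.99 CPM in depleted and 50.2 ± 27.6 CPM in control mice, and Pdyn 67.3 ± 25.1 CPM in depleted and 37.9 ± 18.7 CPM in control mice. Once the striatum score was added to the fit, the log2 fold changes were -0.19, 0.04 and -0.14 for Penk, Tac1 and Pdyn. Summed striatum markers ranged from 842 to 3519 CPM in depleted mice and from 362 to 1716 CPM in control mice, with 0 of 13 at 0 in any library. Within the 4 mice below the gap of the hypothalamus score, a split chosen after seeing the data, Penk (2.32, adjusted p = 0.0188), Tac1 (2.01, adjusted p = 0.00235), Pdyn (1.60, adjusted p = 0.0324) and Nts (1.42, adjusted p = 0.0315) were higher in depleted mice and Grp (-2.07, adjusted p = 0.0107) was lower, at 2 mice per group. Among these mice the striatum score was 1.19 and 1.12 in depleted mice and -2.13 and -1.02 in control mice. Within the 4 mice above the gap no member passed, and Penk stood at 0.41, Tac1 at 0.47 and Grp at -0.52.

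Among the hypothalamic precursors the groups overlapped for each of the 15 tested. Log2 fold changes ran from -0.56 to 0.58, with adjusted p of 0.631 and above, and stood at -0.17 for Hcrt (SE 1.58), -0.03 for Pmch, 0.21 for Avp and 0.27 for Oxt.

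**Figure D5:**
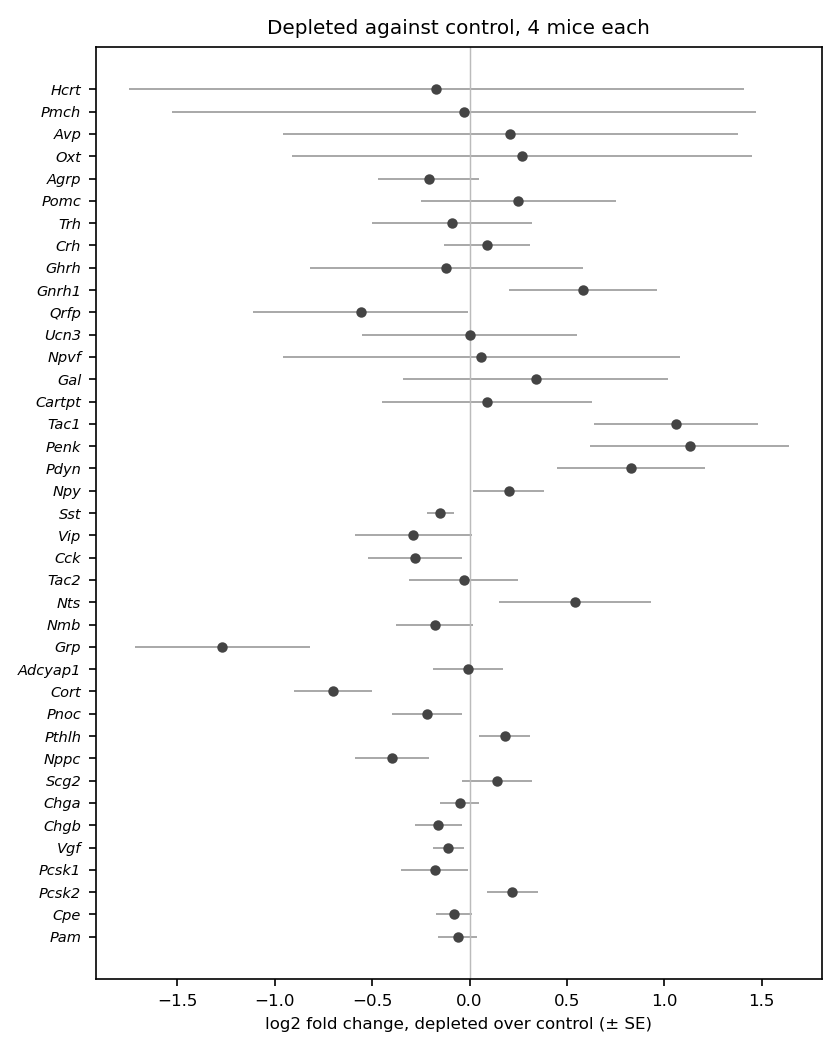
Log2 fold changes, depleted over control, with SE bars, for the 39 members tested, ordered by class from hypothalamic precursors at the top to enzymes at the bottom (4 mice per group). The bars of Hcrt (SE 1.58) and Pmch are the widest, granins and enzymes lie close to 0, and none passed an adjusted p of 0.05.

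Precursors of cortical interneurons and other neurons had SDs of log2 CPM from 0.12 (Sst) to 1.06 (Grp), against 0.36 to 3.99 among hypothalamic precursors. Sst stood at 166, 175, 159 and 166 CPM in depleted mice 1 to 4, against 182, 209.5, 175 and 174 CPM in control mice 1 to 4. Depleted mice 1, 3 and 4 were below every control mouse, depleted mouse 2 was not, and the log2 fold change was -0.15 (SE 0.07, adjusted p = 0.480). Npy, which marks an overlapping set of interneurons, ranged from 29.6 to 46.2 CPM in depleted and from 24.2 to 39.6 CPM in control mice. Vip, of another interneuron class, ranged from 11.99 to 27.7 CPM in depleted and from 17.0 to 39.9 CPM in control mice. Cck, made by interneurons and cortical pyramidal cells, ranged from 81.0 to 163 CPM in depleted and from 112.8 to 209 CPM in control mice. Depleted mouse 3 was the lowest of the 8 for both Vip and Cck and had the lowest summed cortex markers, 862 CPM, and the part of cortical content in these values was not tested.

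Of the others, Tac2 (neurokinin B) ranged from 7.76 to 14.2 CPM in depleted and from 6.47 to 15.3 CPM in control mice. Pnoc (nociceptin) ranged from 7.76 to 12.7 CPM in depleted and from 8.84 to 15.3 CPM in control mice, and Nmb (neuromedin B) from 3.52 to 4.05 CPM in depleted and from 3.53 to 6.50 CPM in control mice, where control mouse 1 was on top. Nppc (C-type natriuretic peptide) ranged from 2.55 to 5.08 CPM in depleted and from 4.59 to 5.92 CPM in control mice. Pthlh (parathyroid hormone-like hormone) stayed between 2.98 and 3.27 CPM in depleted and between 2.33 and 3.17 CPM in control mice. The groups overlapped for each of these members.

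Granins were abundant and close between the groups. Scg2 (secretogranin II) stood at 276, 339, 373 and 270.5 CPM in depleted mice 1 to 4, against 250.1, 317, 365 and 206 CPM in control mice 1 to 4. The 4 mice above the gap of the hypothalamus score were its 4 highest, and its slope on that score was 0.23 (SE 0.04, adjusted p = 0.0249). Chga (chromogranin A) stood at 156, 186, 171 and 170.4 CPM in depleted mice 1 to 4, against 196, 188, 183 and 143 CPM in control mice 1 to 4. Chgb (chromogranin B) stood at 417, 446, 334 and 392 CPM in depleted mice 1 to 4, against 498, 400.2, 377 and 502 CPM in control mice 1 to 4. Control mouse 4 was the lowest for Chga and the highest for Chgb, so these granins did not share an order. Vgf, whose peptides act on energy balance, stood at 325, 284, 279.8 and 266 CPM in depleted mice 1 to 4, against 290.1, 334, 306 and 318 CPM in control mice 1 to 4. Log2 fold changes of the 4 granins, depleted over control, ran from -0.16 to 0.14, with adjusted p of 0.670 and above.

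Among the processing enzymes the SD of log2 CPM was 0.10 for Cpe and 0.14 for Pam, below the median of all genes, and 0.28 for Pcsk1 and 0.23 for Pcsk2, above it. Cpe, the most abundant member, stood at 2091, 2399.7, 2033 and 2078 CPM in depleted mice 1 to 4, against 2368, 2092, 2289.8 and 2360.3 CPM in control mice 1 to 4, and the groups overlapped. Pcsk1, a convertase that opens precursors early in the pathway, stood at 47.8, 51.2, 34.1 and 35.9 CPM in depleted mice 1 to 4, against 43.3, 40.7, 44.4 and 62.2 CPM in control mice 1 to 4. Control mouse 4 was the highest. Pcsk2, the convertase that cuts the products further, stood at 412, 319, 331 and 362 CPM in depleted mice 1 to 4, against 290.3, 296, 254 and 380.0 CPM in control mice 1 to 4, and fell by 0.16 log2 units per unit of hypothalamus score (SE 0.03, adjusted p = 0.0414). Depleted mouse 1 and control mouse 4, the pair with the lowest hypothalamus scores, were its highest. Pam, the amidating enzyme, stood at 209.6, 246, 191 and 184 CPM in depleted mice 1 to 4, against 208, 203, 221 and 234 CPM in control mice 1 to 4, with depleted mouse 2 on top. Log2 fold changes of the 4 enzymes ran from -0.18 to 0.22, with adjusted p of 0.570 and above.

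The wider pathway gave few calls. Of 46 peptide receptors 43 were tested and 0 passed between depleted and control mice, the 2 with the smallest p being Nmbr, the neuromedin B receptor, at -0.67 (2.54 ± 0.714 CPM in depleted and 4.04 ± 0.665 CPM in control mice, adjusted p = 0.278), and Mchr1, the receptor for the Pmch product, at 0.37 (23.2 ± 3.45 CPM in depleted and 17.9 ± 2.17 CPM in control mice, adjusted p = 0.324). On the hypothalamus score 2 of 43 receptors rose, Cckar, a cholecystokinin receptor, at 0.82 (adjusted p = 0.0307) and Galr1, a galanin receptor, at 0.57 (adjusted p = 0.0322), with Avpr1a, a vasopressin receptor, next at 0.46 (adjusted p = 0.0599). On the striatum score 2 of 43 rose, Oprk1, the receptor for dynorphins, at 0.58 (adjusted p = 0.00158) and Tacr1, the receptor for substance P, at 0.43 (adjusted p = 0.0273), with Trhr2 next at 0.45 (adjusted p = 0.0569). Oprk1 had 31.4, 15.8, 33.5 and 25.3 CPM in depleted mice 1 to 4, against 6.89, 21.9, 17.0 and 12.5 CPM in control mice 1 to 4. Its highest and lowest mice were those of Penk. These counts stand beside 1.13% of all genes higher with the hypothalamus score and 1.30% higher with the striatum score.

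Of 17 further dense-core vesicle genes, all tested, 0 passed between the groups. Furin, a convertase of the constitutive pathway, stood at -0.22 (35.1 ± 2.73 CPM in depleted and 41.0 ± 1.33 CPM in control mice, adjusted p = 0.251) and Pcsk5 at -0.44 (adjusted p = 0.427). Qpct, which forms the pyroglutamate end of several peptides, was the 1 that rose with the hypothalamus score, at 0.22 (adjusted p = 0.0306), ahead of Cadps2 (-0.15, adjusted p = 0.138) and Vti1a (-0.08, adjusted p = 0.213). On the striatum score 0 of 17 passed, led by Pcsk5 (-0.22, adjusted p = 0.323), Pcsk7 (0.09, adjusted p = 0.424) and Qpct (0.09, adjusted p = 0.572). Of 21 other precursors 10 were tested and 0 passed between the groups, with Apln, the apelin precursor, at 0.50 (19.4 ± 3.64 CPM in depleted and 13.7 ± 1.64 CPM in control mice, adjusted p = 0.218) and Nppa at 0.81 (adjusted p = 0.453). None of the 10 passed on the hypothalamus score, where Npb (0.48, adjusted p = 0.0740), Ucn (0.93, adjusted p = 0.105) and Prok2 (0.32, adjusted p = 0.245) had the smallest p. On the striatum score 2 of 10 fell, against 0.377% of all genes, Ucn, the urocortin precursor, at -1.53 (adjusted p = 0.0202) and Calcb, a calcitonin gene-related peptide precursor, at -0.98 (adjusted p = 0.0236), and Calca, of the same family, stood at -1.23 (adjusted p = 0.0587). Ucn had 0.236, 4.01, 0.0866 and 0.247 CPM in depleted mice 1 to 4, against 2.14, 0.350, 1.62 and 0.277 CPM in control mice 1 to 4. The 3 high libraries, depleted mouse 2 and control mice 1 and 3, were also the 3 with the highest midbrain and hindbrain markers (41.96, 47.2 and 33.4 CPM), and Calcb was highest in the same 3, at 0.529, 1.44 and 0.496 CPM. The part of those markers in the striatum slopes was not tested.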

How the data were processed

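The authors deposited raw integer counts by gene symbol for 8 forebrain libraries, 1 column per mouse. The build was mm10, and the tools named were STAR, FastQC, MultiQC, DESeq and DESeq2, per the submitters' processing notes. Their versions, the annotation release, any strand setting and the kit are not given in the sources. The members and gene lists were chosen with earlier results of these data known. The deposited counts were filtered with filterByExpr, TMM-scaled and fitted in R 4.3.3 by the quasi-likelihood functions of edgeR 4.0.16, with Benjamini-Hochberg adjustment over 20140 genes and a threshold of 0.05. Log2 fold changes are depleted over control, and scores used log2 CPM with a prior count of 2. The labels name no batch. Replicate libraries differed beyond sampling noise in every pair, so each counted once. The biological coefficient of variation was 16.1%, and the steps were tested on simulated counts. Alternatives used limma 3.58.1 and DESeq2 1.42.0.

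All 42 members are named. Levels in every mouse are given for members past the threshold in any test, the 6 with the smallest p between the groups, granins and enzymes. Of the wider lists, those that passed or ranked first by p are named, and the few with levels by mouse were chosen after seeing them. Coordinates, exon lengths and overlaps come from GENCODE M21 (GRCm38), which held 42 of 42 members. Of these, 8 share exon bases with another gene, on the same strand for Agrp, Kiss1, Nmb and Pam and on the opposite strand for Agrp, Nmu, Pcsk2, Penk and Pmch, and reads of the partner may be among their counts.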

Additional observations from a re-analysis of the deposited data

Results flagged for a closer look

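In 5 of 78 sets of 4 mice (39 members in both groups), 1 mouse stood far from the other 3 of its group; chance alone gives about 1 in 20 such sets. Pomc was at 5.67 CPM in depleted mouse 2, against 1.73 CPM in the nearest mouse of its group. Depleted mouse 3 was low for Vip, at 11.99 CPM with the nearest at 25.3 CPM, and Cck, at 81.0 CPM with the nearest at 151 CPM. Cpe was at 2399.7 CPM in depleted mouse 2, with the nearest at 2091 CPM. Nmb was at 6.50 CPM in control mouse 1, with the nearest at 3.81 CPM.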

How the results depend on the processing

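Counts of members called between the groups stayed at 0 higher and 0 lower in most alternatives. The exceptions were DESeq2 with 1 lower, the fits leaving out each mouse in turn with 0 to 1 lower, and the 4 mice below the gap of the hypothalamus score, chosen after seeing the data, with 4 higher and 1 lower (128 and 184 of all genes). Of all genes, 346 were lower with DESeq2 and 178 to 441 in the fits leaving out a mouse, against 223 in the main fit. Members higher with the hypothalamus score numbered 10 (228 of all genes), but 16 with no filter (377), 19 with DESeq2 (578), 6 with the score as a median (156), 5 with group as the only covariate (84) and 2 to 17 leaving out each mouse in turn (2 without control mouse 4 and 17 without control mouse 1; all genes 10 to 1087). Members lower with it numbered 1, but 2 with DESeq2 and 0 with the score as a median or with group alone. A midbrain and hindbrain score in place of the striatum score, added after seeing the data, also gave 0. Leaving out each mouse in turn gave 0 to 3, where 0 to 1081 of all genes were lower, against 174 with all mice. Members higher with the striatum score numbered 5, and 3 to 6 leaving out each mouse in turn (3 without depleted mouse 2; all genes 89 to 335, against 261). Members lower with it numbered 1, but 2 by library size alone, with a filter of 1 CPM or with limma-voom. They numbered 3 with no filter or with DESeq2 and 0 with group alone. Leaving out each mouse in turn gave 0 to 3, where 20 to 200 of all genes were lower, against 76 with all mice. Where no count over all genes is given, a member count is not read as particular to the members.

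Between the groups, signs were followed fit by fit for granins, enzymes, striatal precursors and the members with the smallest p. Among these the sign turned once the striatum score was added for Penk (-0.19), Pdyn (-0.14), Chga (0.00), Chgb (0.07), Pcsk1 (0.03), Cpe (0.05) and Pam (0.07). With both scores it turned for the same genes (-0.18, -0.14, 0.01, 0.07, 0.04, 0.05 and 0.07). In the 4 mice above the gap it turned for Chgb (0.01), Pcsk1 (0.00), Cpe (0.02) and Pam (0.05). The cause was not tested. Over 22 alternatives 29 of 39 members changed sign at least once and 6 passed at least once. Neither count was made over all genes, so neither is read as particular to the members. Others that changed sign included Nts (-0.15 to 1.42), Vip (-0.47 to 0.12) and Cck (-0.43 to 0.06). Deviations of mice with the same number correlated at -0.22, -0.17, 0.37 and -0.01, and those of other pairs at -0.38 to 0.44. These values mix every source of difference between mice, so they cannot decide whether the numbers pair them. With the replicate number as a block 0 members were higher and 0 lower between the groups, and 6 rose and 3 fell with the striatum score. Counts over all genes are not given for these fits, so the member counts are not read as particular to the members. With 8 mice and 4 coefficients, 4 residual degrees of freedom stand behind each score slope of the main fits. Fits that left out a mouse had fewer, and those with group as the only covariate had more. The replicate block left the fewest, so its counts on the striatum score are a description.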
